A study of Mus musculus with 6 samples.

Results

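Matricellular proteins are secreted into the extracellular matrix, where they regulate how cells attach, migrate and signal rather than bearing mechanical load. The genes described here are the 6 whose symbol in the deposited table is Tnc (tenascin C), Sparc (osteonectin), Postn (periostin), Thbs1 and Thbs2 (thrombospondins 1 and 2) or Tgfbi (transforming growth factor beta induced), out of 22274 genes in the table. All 6 passed the filter on low counts, as did 13248 genes of the whole table. The 3 libraries labelled Prune2 siRNA came from cells given siRNA against Prune2, and the 3 libraries labelled control siRNA came from cells given a scrambled siRNA. Every culture was mouse (Mus musculus) kidney cells labelled primary renal fibroblasts, kept in medium with 10% serum and treated with TGF-β at 5 ng/ml for 48 h. The genotype label is WT for control libraries and a Prune2 knockdown for the others. The labels give no strain, age or sex, and no library came from cells kept without TGF-β.

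As background, TGF-β turns fibroblasts into myofibroblasts and raises matricellular genes in injured kidney. Tenascin C is a large hexameric glycoprotein of healing wounds that interferes with adhesion to fibronectin. Osteonectin binds collagen and assists its assembly into fibrils. Periostin and the Tgfbi product are related proteins built on FAS1 domains that bind integrins, and periostin links the protease Bmp1 to activation of the crosslinking enzyme Lox. Thrombospondin 1 can activate latent TGF-β and both thrombospondins bind the receptors CD36 and CD47. The Tgfbi protein is made by fibroblasts, epithelia and macrophages.

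The 5 genes that fell with Prune2 siRNA were Tgfbi (5.69-fold), Thbs2 (1.84-fold), Tnc (1.43-fold), Sparc (1.36-fold) and Postn (1.26-fold), while Thbs1, the most abundant of the 6, did not pass the test. Over all tested genes, 5.83% were called lower, 4.46% higher and 10.3% in either direction. A gene was called at a Benjamini-Hochberg adjusted p under 0.05 over all tested genes in the quasi-likelihood test of edgeR, the source of every adjusted p below unless another is named. A negative log2 fold change means a lower level with Prune2 siRNA. The median log2 fold change of the 6 genes was -0.48, against 0.0042 over all tested genes. The groups did not overlap for the same 5 genes, and 24.3% of all tested genes had groups that did not overlap.

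Sequence upstream of the transcription start is shown for 4 called genes, up to any annotated exon, because these genes were lower together. RefSeq promoter windows (GRCm38.p6) were found for 5 of the 6 genes, with a second start site and window for both Postn and Tnc. Each sequence is the 250 bases before a RefSeq start site, with only the first 187 of them printed for Tgfbi, where a GENCODE exon begins. Sparc is not shown because only the first 5 bases of its window come before an exon of other Sparc transcripts. Letters are 5′ to 3′ on the strand of the gene, and capitals mark matches to the motifs listed after the sequences.
Tgfbi, chr13:56609336-56609522, plus strand: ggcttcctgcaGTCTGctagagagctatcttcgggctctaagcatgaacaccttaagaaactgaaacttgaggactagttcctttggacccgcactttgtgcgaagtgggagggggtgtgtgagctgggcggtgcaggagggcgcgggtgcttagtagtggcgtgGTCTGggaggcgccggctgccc
Thbs2, chr17:14694263-14694512, minus strand: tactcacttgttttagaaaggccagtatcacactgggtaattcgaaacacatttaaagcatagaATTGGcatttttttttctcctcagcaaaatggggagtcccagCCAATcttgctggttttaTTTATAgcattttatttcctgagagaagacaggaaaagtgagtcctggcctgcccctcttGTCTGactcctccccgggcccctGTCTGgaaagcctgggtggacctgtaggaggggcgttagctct
Tnc, chr4:64047016-64047265, minus strand: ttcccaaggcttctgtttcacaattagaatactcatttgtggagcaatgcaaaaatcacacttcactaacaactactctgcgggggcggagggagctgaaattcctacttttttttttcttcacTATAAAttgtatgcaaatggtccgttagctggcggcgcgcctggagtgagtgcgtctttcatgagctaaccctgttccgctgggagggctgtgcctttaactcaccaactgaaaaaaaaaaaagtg
Postn, chr3:54360857-54361106, plus strand: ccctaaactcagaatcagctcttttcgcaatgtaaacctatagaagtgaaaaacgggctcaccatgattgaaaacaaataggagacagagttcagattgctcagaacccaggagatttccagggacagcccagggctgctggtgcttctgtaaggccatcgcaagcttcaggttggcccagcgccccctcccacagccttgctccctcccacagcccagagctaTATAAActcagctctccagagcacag

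Motifs were searched on both strands of the whole 250-base window before each start site, also where fewer bases are printed. The promoter boxes searched were TATAAA, known as the TATA box, and the CCAAT motif. Motifs of signalling factors were GTCTG, part of SMAD sites, then TGANTCA for AP-1, then GGAATG for TEAD factors and the CArG box of serum response factor. The last was GAGGAA, found in sites of the leukocyte factor PU.1. No motif match overlapped another in the printed sequences. The window of Tgfbi held GTCTG or its reverse starting 239 and 85 bases before the start site, and that of Thbs2 held it 66 and 43 bases before. Among windows not printed, that of Sparc held it 35 bases before the start, and the second windows of Postn and Tnc held it 191 and 70 bases before theirs. GTCTG was in 42.2% of all 32851 windows of 250 bases. TATAAA or its reverse stood in the windows of Thbs2 and Tnc, both 126 bases before the start, and in that of Postn 26 bases before it, against 12.4% of all windows. CCAAT or its reverse occurred at 186 and 144 bases before the Thbs2 start, and in 33.8% of all windows. TGANTCA (6.75% of all windows), GGAATG (12.6%), GAGGAA (23.3%) and the CArG box (1.47%) had no match in the windows of the printed sequences, which says only that these letters are not there. The second Tnc window held GAGGAA 44 bases before its start.

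Depth and cell identity were examined over all libraries. Totals ran from 20075265 to 23234797 counts. Prune2 itself stood at 3.78, 3.19 and 4.44 CPM (counts scaled to library size) in the Prune2 siRNA libraries, against 6.49, 7.85 and 6.52 CPM in the control libraries (log2 fold change -0.87, SE 0.15, adjusted p = 0.000214). The fall was smaller in deposited FPKM, a level per transcript length: 0.847 with Prune2 siRNA and 1.18 in control libraries (log2 ratio -0.48). The transcript length implied by Prune2 counts and FPKM averaged 4492 bases with Prune2 siRNA and 5874 bases in control libraries. The fibroblast label was only partly matched by the markers. Among 12 fibroblast markers Vim averaged 395 CPM with Prune2 siRNA and 569 CPM in control libraries, and Col1a1 204 and 236 CPM, but Pdgfra averaged 4.87 and 5.02 CPM, Dcn and Lum were under 1 CPM in every library, and Dpt was at 0 counts throughout. Among 15 tubular epithelial markers, several general epithelial genes were abundant: the keratin Krt8 averaged 2208 CPM with Prune2 siRNA and 2418 CPM in control libraries, the cadherin Cdh1 997 and 1054 CPM, and Epcam 431 and 427 CPM. Markers of single nephron segments were far less abundant. The proximal tubule receptors Lrp2 and Cubn averaged 34.5 and 10.3 CPM with Prune2 siRNA, against 41.2 and 10.2 CPM in control libraries. In the same order of groups, the water channel Aqp1 averaged 7.22 and 9.59 CPM and Slc12a3 5.32 and 1.98 CPM. Umod averaged 1.58 and 1.38 CPM and Slc12a1 0.536 and 0.408 CPM, and Aqp2 was at 0 counts throughout. Slc12a3 was called higher with Prune2 siRNA (log2 fold change 1.42, adjusted p = 1.12e-05), and Lrp2 (-0.26) and Aqp1 (-0.41) were called lower. Summed over each list, epithelial markers stood at 5443 to 5915 CPM with Prune2 siRNA and 5885 to 6022 CPM in control libraries. Fibroblast markers summed to 680 to 721 and 899 to 940 CPM in the same order of groups. The 6 genes were therefore measured in RNA where the listed epithelial markers outweighed the listed fibroblast markers. Which cells made the 6 transcripts was not tested. In bulk RNA, fewer cells of a type and less RNA per cell cannot be told apart.

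Levels per transcript length, in deposited FPKM, split the 6 genes into an abundant and a sparse set. Thbs1 averaged 1465 ± 69.0 FPKM with Prune2 siRNA and 1461 ± 67.2 FPKM in control libraries (SD, n = 3 each), and ranked 20th of all genes in the table in both groups. Tnc averaged 649 ± 15.6 and 922 ± 8.89 FPKM (Prune2 siRNA and control siRNA, SD, n = 3 each) and ranked 47th and 31st. Sparc averaged 255 ± 8.77 and 344 ± 7.22 FPKM in the same order of groups, ranking 190th and 119th.

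The sparse set changed its internal order. With Prune2 siRNA it ran Postn (3.93 ± 0.142 FPKM), Thbs2 (1.94 ± 0.126 FPKM) and Tgfbi (1.36 ± 0.172 FPKM), and in control libraries Tgfbi (7.70 ± 0.943 FPKM), Postn (5.23 ± 0.423 FPKM) and Thbs2 (3.55 ± 0.155 FPKM; SD, n = 3 throughout). Neighbours in these orders did not overlap between libraries in either group, so Tgfbi stood above the other sparse genes in control libraries and below them with Prune2 siRNA. Together the 6 genes took 1.32% to 1.41% of all counts in Prune2 siRNA libraries and 1.55% to 1.64% in control libraries, nearly all of it from Thbs1 and Tnc.

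**Figure D1:**
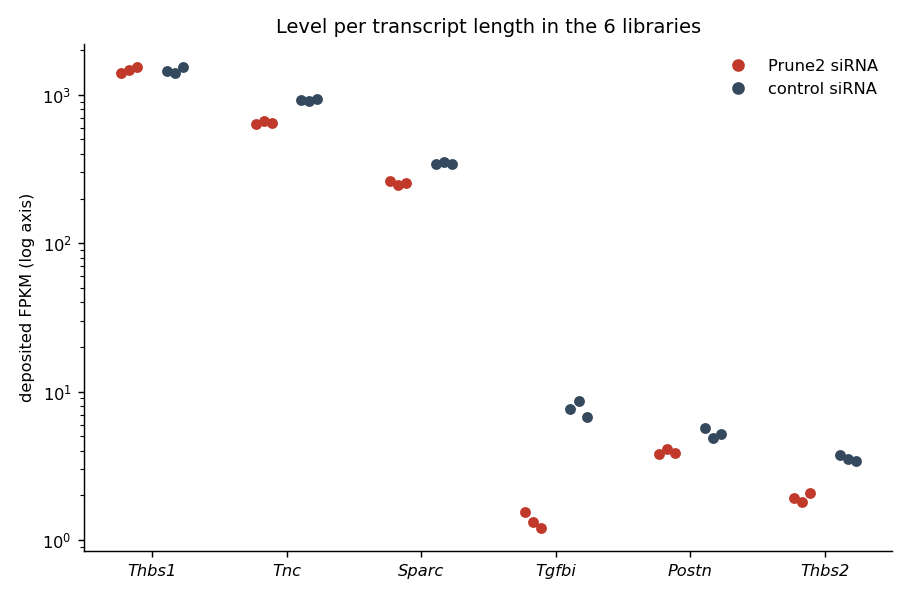
Deposited FPKM of the 6 genes in each library on a log axis, with 3 Prune2 siRNA libraries (red) left of 3 control siRNA libraries (dark) for each gene. Thbs1, Tnc and Sparc sit above 200 FPKM, and Tgfbi goes below Postn and Thbs2 with Prune2 siRNA.

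Tnc, the tenascin, was lower in each Prune2 siRNA library than in any control library. Tnc (ENSMUSG00000028364) lies on chromosome 4 from 63959785 to 64047015 on the minus strand of GRCm38, with 26 exons in its longest coding transcript. It stood at 4502, 4741 and 4540 CPM in Prune2 siRNA libraries, against 6597, 6505 and 6617 CPM in control libraries. The groups were far apart relative to their spread, with a coefficient of variation of 2.80% with Prune2 siRNA and 0.906% in control libraries. The log2 fold change was -0.52 (SE 0.04, 95% interval -0.59 to -0.44, adjusted p = 1.04e-10), a fall of 30.1%. A non-coding gene, 8030451A03Rik, overlaps Tnc on the opposite strand and was not analysed here. The strand setting of the counting is not given in the sources used here, so reads of the pair cannot be told apart.

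The other tenascins were nearly silent. Tnr, Tnn and Tnxb did not pass the filter on low counts, and their summed level was at most 0.0871 CPM in any Prune2 siRNA library and 0.299 CPM in any control library. Tnc thus carried nearly all the tenascin transcript counted.

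Sparc, the collagen-binding osteonectin, was lower by a similar proportion. Sparc (ENSMUSG00000018593; chromosome 11, 55394500 to 55423183, minus strand) stood at 555, 521 and 527 CPM in Prune2 siRNA libraries, against 714, 750 and 716 CPM in control libraries. No library of one group reached the range of the other. Its log2 fold change was -0.44 (SE 0.04, 95% interval -0.52 to -0.37, adjusted p = 1.88e-09), a fall of 26.5%.

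Among 7 relatives of Sparc, 6 were tested, of which Sparcl1 and Spock3 were lower and 0 higher, with a median log2 fold change of -0.37. Sparcl1 (hevin, a secreted relative of osteonectin) averaged 1.23 ± 0.140 CPM with Prune2 siRNA and 2.17 ± 0.303 CPM in control libraries (SD, n = 3 each, adjusted p = 0.0319). Spock3, a testican proteoglycan, averaged 7.94 ± 1.05 and 10.3 ± 0.747 CPM in Prune2 siRNA and control libraries (SD, n = 3 each, adjusted p = 0.0321). Fstl1, the most abundant of these relatives by CPM, was not called at 173 and 184 CPM (log2 fold change -0.09, SE 0.04, adjusted p = 0.144).

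Postn, the FAS1-domain protein periostin, showed the smallest fall of the called genes. Postn (ENSMUSG00000027750; chromosome 3, 54361109 to 54391037, plus strand) had 243, 294 and 278 counts in Prune2 siRNA libraries, against 340, 292 and 329 counts in control libraries. In CPM it stood at 11.5, 12.8 and 11.9 with Prune2 siRNA, against 16.6, 14.6 and 14.3 in control libraries. On the CPM scale the groups did not overlap, although raw counts of Prune2 siRNA replicate 2 and control replicate 2 were nearly equal. The log2 fold change was -0.33 (SE 0.09, 95% interval -0.51 to -0.14, adjusted p = 0.0166). The call was lost without control replicate 1 (adjusted p = 0.114). It was also lost without Prune2 siRNA replicate 1 (0.0683), without replicate 3 of that group (0.0663), and in DESeq2 (0.0709), within a range of 0.00616 to 0.114 over 15 alternatives. The authors' deposited table also gave Postn an adjusted p above the threshold (0.0801).

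Postn was also the member whose FPKM and counts diverged. The transcript length implied by its count and FPKM was 3011, 3130 and 3084 bases in Prune2 siRNA libraries, against 2905, 3005 and 2763 bases in control libraries. The groups did not overlap, but the nearest libraries, at 3011 and 3005 bases, were almost level. The annotation holds 5 protein-coding Postn transcripts, the longest of 3205 bases. In the authors' deposited table the log2 fold change of Postn, in FPKM, is -0.41, against -0.33 from counts here. For Thbs1 the implied length was 5848 bases in each library, the length of its single annotated coding transcript, and for Thbs2, Tnc and Tgfbi the group means differed by under 3 bases.

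Thbs1, the thrombospondin that can activate latent TGF-β, was the gene that did not pass the test. Thbs1 (ENSMUSG00000040152; chromosome 2, 118111876 to 118127133, plus strand) stood at 8124, 8622 and 8886 CPM in Prune2 siRNA libraries, against 8449, 8275 and 8997 CPM in control libraries. The groups overlapped over most of their range. The log2 fold change was -0.0049 (SE 0.04, adjusted p = 0.967), and its 95% interval ran from -0.09 to 0.08, equal to 0.940 to 1.06 times the control level. Its counts were among the largest measured, 165537 to 208051 per library, so depth did not limit this estimate. A short lincRNA gene, Gm29233, overlaps Thbs1 on the opposite strand and was not analysed here.

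Thbs2, its paralogue, fell in all 3 Prune2 siRNA libraries from a far lower level. Thbs2 (ENSMUSG00000023885; chromosome 17, 14665500 to 14694235, minus strand) stood at 11.3, 10.8 and 12.1 CPM in Prune2 siRNA libraries, against 22.1, 20.7 and 20.2 CPM in control libraries. The groups were separated by a wide gap. The log2 fold change was -0.88 (SE 0.08, 95% interval -1.05 to -0.71, adjusted p = 1.98e-08), a fall of 45.7%.

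The pair of thrombospondins was compared directly through the log2 ratio of Thbs1 to Thbs2 CPM in each library. This ratio was 9.49, 9.64 and 9.52 in Prune2 siRNA libraries, against 8.58, 8.64 and 8.80 in control libraries. It was higher by 0.88 with Prune2 siRNA, in 3 of 3 libraries above each control library. The exact two-sided permutation test gave p = 0.1, the smallest that 3 libraries against 3 allow, so the design could not reach a p under the threshold. Thbs3, a further thrombospondin, was not called at 5.03 ± 0.515 and 5.57 ± 0.180 CPM in Prune2 siRNA and control libraries (SD, n = 3 each; log2 fold change -0.15, SE 0.14, adjusted p = 0.636), and Thbs4 and Comp did not pass the filter.

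Tgfbi fell furthest of the 6. Tgfbi (ENSMUSG00000035493; chromosome 13, 56609523 to 56639562, plus strand) had 89, 83 and 76 counts in Prune2 siRNA libraries, against 426, 473 and 426 counts in control libraries. In CPM these were 4.20, 3.62 and 3.25 with Prune2 siRNA, against 20.8, 23.6 and 18.5 in control libraries. The lowest control library was still several times above the highest Prune2 siRNA library. The log2 fold change was -2.51 (SE 0.12, 95% interval -2.75 to -2.26, adjusted p = 6.92e-14), a fall of 82.4%. Only 0.747% of tested genes had a lower log2 fold change, and 7 genes had a smaller p-value.

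The FAS1-domain pair moved by unequal amounts. The log2 ratio of Tgfbi to Postn CPM was -1.45, -1.82 and -1.87 in Prune2 siRNA libraries, against 0.33, 0.70 and 0.37 in control libraries. It was lower by 2.18 in the Prune2 siRNA libraries, 3 of 3 of them below each control library (exact two-sided permutation test, p = 0.1, the smallest possible here). Stab1, a scavenger receptor of macrophages and sinusoidal endothelium that also carries FAS1 domains, was lower too, at 7.51 ± 1.21 CPM with Prune2 siRNA and 19.0 ± 0.792 CPM in control libraries (SD, n = 3 each; log2 fold change -1.34, SE 0.10, adjusted p = 4.22e-10). Stab2 had 0 counts in all libraries.

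**Figure D2:**
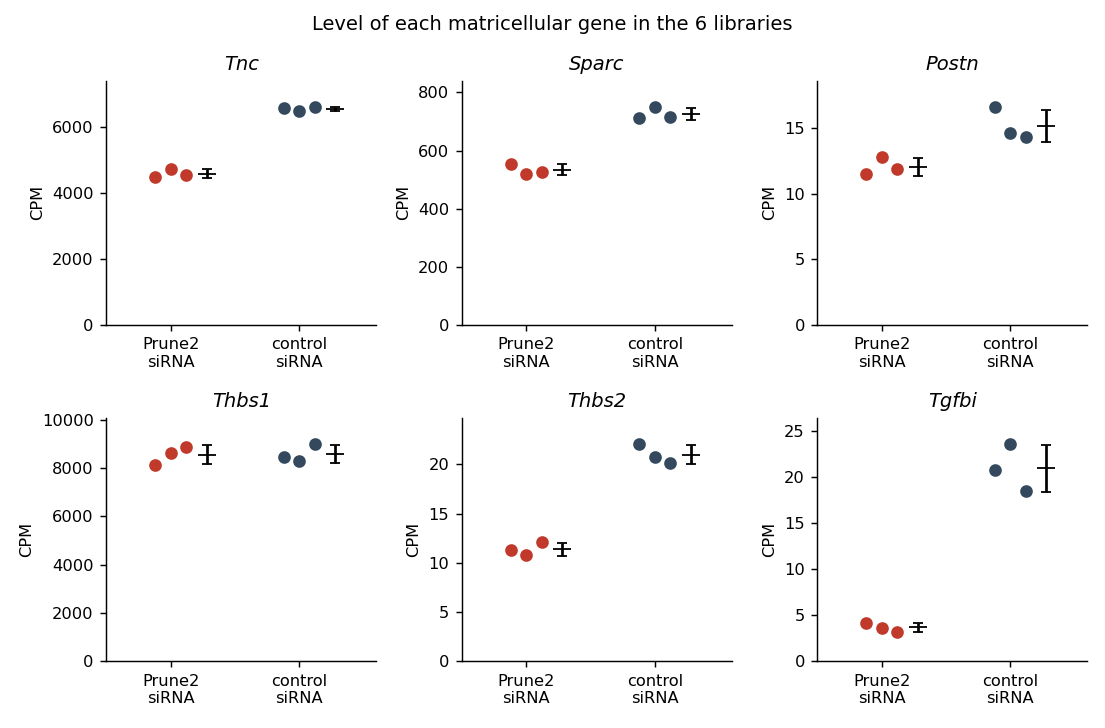
CPM of each of the 6 genes (vertical axes from 0) in 3 Prune2 siRNA libraries (red, left) and 3 control siRNA libraries (dark, right), with the mean and SD beside the points. The groups are apart for Tnc, Sparc, Postn, Thbs2 and Tgfbi and overlap for Thbs1.

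**Figure D3:**
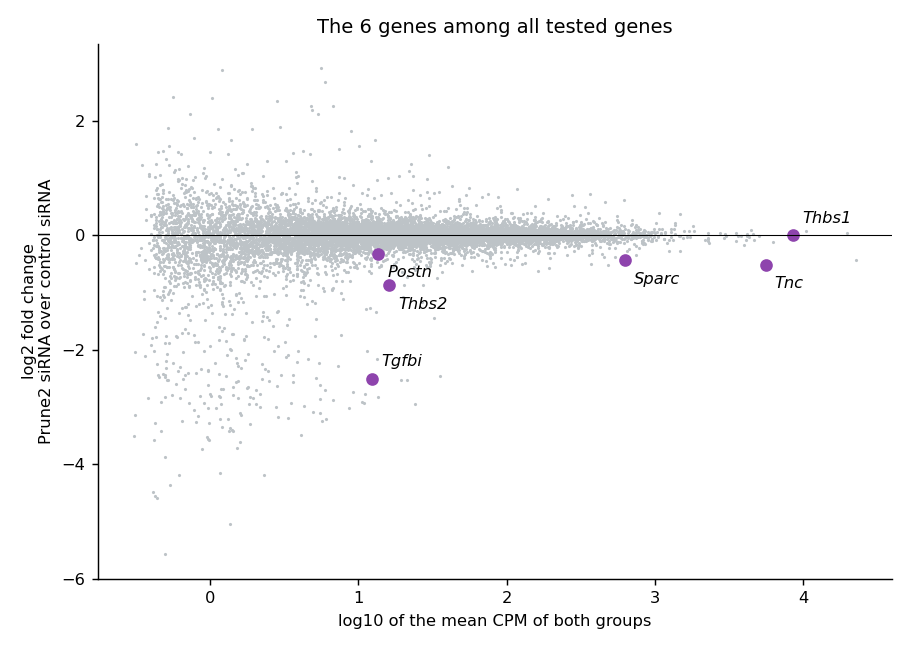
Log2 fold change, Prune2 siRNA over control siRNA, against the log10 mean CPM of both groups for all tested genes (grey), with the 6 genes in purple. Tgfbi, at -2.51, lies within a spread of sparse genes far below 0 and Thbs1 lies on the 0 line.

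Leukocyte markers moved with these falls. Of 18 leukocyte and macrophage markers tested, 17 were lower with Prune2 siRNA and 0 higher, with a median log2 fold change of -2.62. Their summed level was 55.4 to 57.1 CPM in Prune2 siRNA libraries and 225 to 278 CPM in control libraries, and none of the 18 was at 0 in all libraries. The median of the list is close to the value of Tgfbi (-2.51) and far below those of Tnc, Sparc, Postn and Thbs2. For each 100 CPM of summed leukocyte markers, Tgfbi stood at 7.49, 6.53 and 5.69 CPM in Prune2 siRNA libraries, against 7.84, 8.49 and 8.22 CPM in control libraries. Relative to that sum Tgfbi was 1.25-fold lower, where its own level was 5.69-fold lower. The same ratio for Thbs2 was 20.1, 19.4 and 21.2 in Prune2 siRNA libraries, against 8.31, 7.43 and 8.95 in control libraries, so Thbs2 fell less than the markers did. The part of the leukocyte markers in these falls was not tested.

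Other cell type markers moved less. Of 12 endothelial markers, 6 were lower and 0 higher (median log2 fold change -0.47; summed level 107 to 112 CPM with Prune2 siRNA and 142 to 155 CPM in control libraries). Of 8 tested fibroblast markers, Vim, Col1a1 and Col1a2 were lower and 0 higher (median -0.22; 680 to 721 and 899 to 940 CPM in Prune2 siRNA and control libraries). Of 13 tested tubular epithelial markers, 4 were higher and 3 lower (median 0.012; 5443 to 5915 CPM with Prune2 siRNA and 5885 to 6022 CPM in control libraries). Of 6 tested pericyte markers 3 were lower and 0 higher (314 to 328 and 362 to 381 CPM), and of 5 tested podocyte markers 2 were lower and 0 higher (131 to 155 and 137 to 140 CPM). Their part in the falls of the 6 genes was not tested.

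**Figure D4:**
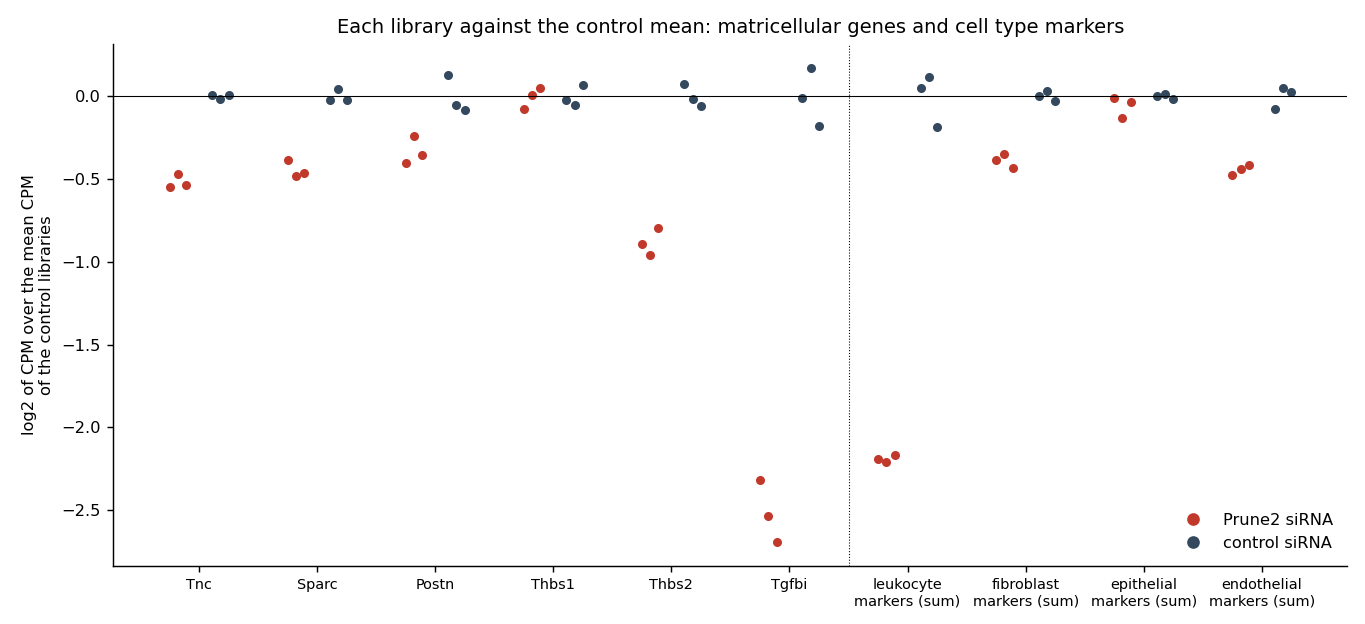
Log2 of CPM over the mean of the control libraries for the 6 genes (left of the dotted line) and for summed cell type markers (right), with Prune2 siRNA libraries in red left of control siRNA libraries in dark. Tgfbi and the leukocyte markers are both more than 2 log2 units below the control mean in each Prune2 siRNA library, and Thbs1 and the epithelial markers are near 0.

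Genes whose profile across the 6 libraries was nearest to each member were found by the root mean square difference of centred log2 CPM among 8911 genes with a mean of at least 10 CPM. Nearest to Tgfbi were Mpeg1 (difference 0.104), Lyz2 (0.171) and Ctss (0.214), which are genes of macrophages, with log2 fold changes of -2.53, -2.53 and -2.84. Nearest to Thbs2 were Pla2g7 (0.0470), Kctd12 (0.0782) and Csf1r (0.112), the last being the macrophage colony-stimulating factor receptor, with log2 fold changes of -0.87, -0.88 and -1.09. Lyz2, Ctss and Csf1r also belong to the list of leukocyte and macrophage markers above, so these nearest profiles partly repeat that list. Nearest to Tnc were Pappa (0.0202), Lrig3 (0.0230) and Cd200 (0.0368), nearest to Sparc were Cotl1 (0.0395), Ctsc (0.0398) and Atp2b4 (0.0402), and nearest to Postn were Cspg4 (0.0357), Adamts6 (0.0376) and Dse (0.0485). Nearest to Thbs1 were Tdrp (0.00994), R3hdm2 (0.0129) and Six4 (0.0134), none of which was called. With 6 libraries in 2 groups, a group difference of the same size is enough to make profiles alike.

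The CCN proteins and osteopontin, further matricellular genes, gave no call. Of 7 listed, 4 were tested, with 0 higher and 0 lower in edgeR's test and a median log2 fold change of -0.032. Ccn1 averaged 846 ± 23.5 CPM with Prune2 siRNA and 848 ± 16.9 CPM in control libraries, and Spp1 (osteopontin) 4632 ± 164 and 4577 ± 395 CPM (SD, n = 3 each). Ccn2, the connective tissue growth factor, stood at 2190 ± 40.1 and 2348 ± 33.5 CPM (SD, n = 3 each; log2 fold change -0.10, SE 0.03, adjusted p = 0.0611).

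**Figure D5:**
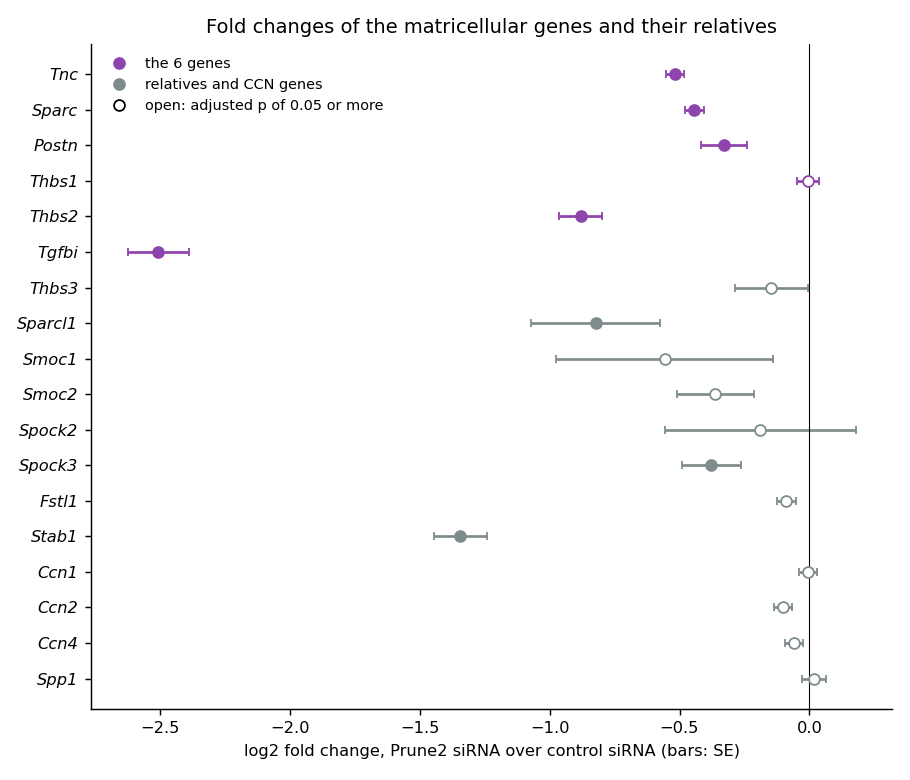
Log2 fold change, Prune2 siRNA over control siRNA, with its SE for the 6 genes (purple) and for the tested relatives, CCN genes and Spp1 (grey), open where the adjusted p was 0.05 or more. All 4 CCN and Spp1 values lie between -0.10 and 0.02, while Tgfbi, Stab1 and Thbs2 lie lowest.

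Receptors of these proteins moved in both directions. Of 20 tested receptor genes 8 were lower, 3 higher and 9 not called, with a median log2 fold change of -0.084. Among those lower were Itgb3 (log2 fold change -0.58, adjusted p = 3.59e-11), the β3 chain of the αvβ3 integrin that binds periostin, tenascin C and thrombospondin, the fibronectin receptor chain Itga5 (-0.31), the heparan sulfate proteoglycan Sdc1 (-0.35) and Lrp1 (-0.22), which clears thrombospondins. Also lower, and named after their values were seen, were Itga9 (-0.64, adjusted p = 0.0056), a tenascin C receptor chain, and Cd36 (-1.64, adjusted p = 0.00634), the thrombospondin receptor, at 0.324 ± 0.131 CPM with Prune2 siRNA and 1.03 ± 0.209 CPM in control libraries (SD, n = 3 each). The receptors that rose were Itgb6 (0.20), Itgb5 (0.16) and Sdc4 (0.13). The thrombospondin receptor Cd47 averaged 73.4 and 73.2 CPM in Prune2 siRNA and control libraries and was not called (adjusted p = 0.986). Leukocyte markers were lower in the same libraries, 17 of 18 of them with a median of -2.62, and their part in the receptor falls was not tested.

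Among matrix partners and processing enzymes, those that changed were all lower. Of 19 tested, 10 fell, 0 rose and 9 were not called, with a median log2 fold change of -0.21. Those with the smallest adjusted p were the gelatinase Mmp9 (-0.64, adjusted p = 3.57e-09), Fn1 (-0.44, adjusted p = 2.10e-08), whose product binds tenascin C and periostin, Col5a1 (-0.28) and Tgfb1 (-0.33), the ligand that thrombospondin 1 activates. Bmp1, the protease that periostin recruits, also fell (-0.22) and was named after its value was seen. Of 19 genes that respond to or transduce TGF-β, 6 were lower, 1 higher and 12 not called (median -0.079). The lower ones included Itgb3, Tagln (-0.39), Acta2 (-0.29) and Col4a1 (-0.27), and the higher one was the receptor Tgfbr2 (0.21). Leukocyte markers were lower in the same libraries, and their part here was not tested.

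In the deposited annotation all 6 genes carry the extracellular matrix term. Of 156 tested genes with that term, the 6 included, 37 were lower and 7 higher (median log2 fold change -0.14), so 23.7% were lower against the background of 5.83%. Of 51 genes annotated to collagen binding, Sparc and Tgfbi among them, 15 were lower and 1 higher. Of 63 genes of the ECM-receptor interaction pathway, which holds Tnc, Thbs1 and Thbs2, 16 were lower and 8 higher, with a median of -0.0049, the value of Thbs1 itself.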

How the data were processed

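RNA was extracted with Trizol and sequenced as 6 libraries, per the labels' protocols. The authors deposited 1 table with a read count and an FPKM value per gene and library, their mean FPKM per group, a log2 fold change and p-values with adjusted p-values, per the file headers. The submitters' processing notes list the builds GRCm38 and mm10. Not given in the sources used here are the aligner, the counter, the strand setting and the test that gave the deposited p-values. The deposited log2 fold change is the log2 ratio of the authors' mean FPKM columns.

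The counts went into edgeR 4.0.16 under R 4.3.3 (TMM scaling, filterByExpr, glmQLFit, glmQLFTest, Benjamini-Hochberg adjustment over 13248 genes). The SE is the log2 fold change divided by the square root of F, and 95% intervals use the t distribution with the fit's degrees of freedom. CPM are counts over TMM-scaled library sizes; marker and list levels use factors over all genes of the table. Identifiers were matched to GENCODE M21 (22219 matched, 55 not). Alternatives used DESeq2 1.42.0, limma 3.58.1, other scalings, no filter, FPKM with a pseudocount of 1 or 0.1, a replicate block and each library left out. The test was tried on simulated counts. Groups came from the sample titles. Replicate pairs differed by 2.57 to 3.92 chi-square per degree of freedom, above sampling noise. The labels do not say that replicates were separate cultures, so a p-value reflects only how these libraries vary, possibly for technical reasons.

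The 6 genes and the gene lists were chosen with earlier results of these data known. Named genes were the 6, Prune2, up to 4 called genes per direction of each list by smallest adjusted p, genes needed to resolve counts of 5 or fewer, and the 3 nearest profiles per gene. Genes named outside that rule, among them uncalled relatives, receptors and cell type markers, were chosen after their values were seen.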

Additional observations from a re-analysis of the deposited data

How the results depend on the processing

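Over 15 alternatives the calls of Tnc (log2 fold change -0.54 to -0.50), Sparc (-0.47 to -0.42), Thbs2 (-0.93 to -0.63) and Tgfbi (-2.61 to -1.88) were kept, with the values nearest 0 for Thbs2 and Tgfbi on log2(FPKM + 1), where the pseudocount shrinks low genes. Postn lost its call with DESeq2 (-0.33), and over the fits that leave out 1 library its log2 fold change ran from -0.37 to -0.26. Thbs1, close to 0 throughout, changed sign without scaling factors (0.0042) and in limma on log2(FPKM + 1) and log2(FPKM + 0.1) (0.0042 each), and ran from -0.035 to 0.029 when 1 library was left out. Prune2 lost its call in limma on log2(FPKM + 1) (-0.24) and log2(FPKM + 0.1) (-0.43), and those fits called 752 and 756 genes in all, against 1364. On log2(FPKM + 1) the difference in the Thbs1 to Thbs2 ratio was 0.64 and that in the Tgfbi to Postn ratio was -1.54. The replicate block called 1490 genes and changed no call among the 6 or Prune2 (Postn adjusted p = 0.0136, log2 fold change -0.33). Deviations of libraries with the same number correlated at 0.063, -0.003 and 0.040, against -0.107 to 0.066 for libraries with different numbers. Pairing by number is not evident in these values, and so few libraries cannot exclude it. Depth limits Tgfbi, Postn and Thbs2, where counting error at the mean count of all libraries gives a coefficient of variation of 6.18%, 5.81% and 5.35%. Observed values in Prune2 siRNA and control libraries were 13.0% and 12.3% for Tgfbi, 5.79% and 8.27% for Postn, and 5.81% and 4.70% for Thbs2. Counts of Tgfbi were 76 to 89 with Prune2 siRNA and 426 to 473 in control libraries. Its counting error is therefore above 6.18% in the former and below it in the latter.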
